A study of Mus musculus with 12 samples.

Results

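The genes described here encode 10 proteins of elastic microfibrils and elastic fibres: Mfap4, Mfap2, Mfap5, Fbn1, Fbn2, Eln, Fbln5, Efemp1, Efemp2 and Emilin1. They are listed by name for their known place in the fibre, with earlier results of these data known, and are 10 of the 49492 genes in the deposited count table. The peak table held 29 m6A peaks in these genes among 42989. The study measured mouse skin in 2 conditions, Control and UV, with 3 samples of each. Every sample gave 1 input library of its RNA and 1 IP library enriched with an antibody against N6-methyladenosine (m6A), a methyl mark on adenosines in messenger RNA. The series title names KIAA1429 (Virma), a subunit of the m6A methyltransferase complex, and MFAP4 in photoaging, which is skin ageing driven by ultraviolet light. The strain, age and sex of the mice, the body site and the UV source, dose and schedule were not given in the sources used here, nor whether samples of a condition came from separate mice, so p-values measure the spread between these samples.

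Elastic fibres let skin stretch and recoil. Fibrillins polymerise into microfibrils, small glycoproteins such as the MAGPs dock on them, and tropoelastin is laid down on this scaffold with the help of fibulins and cross-linked by lysyl oxidases. Dermal fibroblasts make most of these proteins. In photoaged skin the elastic fibre network of the dermis is known to be disordered. On messenger RNA, m6A is typically densest near the stop codon and in long internal exons, and it is read by proteins that affect stability, splicing and translation.

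The sequences available for these genes were RefSeq windows around annotated transcription starts (GRCm38.p6). A window was found for 6 of the 10 genes, and peaks near the 5′ end of 3 of them, Fbn1, Mfap2 and Emilin1, covered at least 1 motif. The letters GGAC followed by any base but G, which belong to the consensus that the m6A writer prefers, were searched on both strands, and on 1 strand 2 such motifs cannot overlap. On the gene's own strand they occur in 60.2% of 32851 such windows of 300 bases, and on either strand in 83.9%, so a match is a common event and describes only where the letters lie. Of the matches on the gene's strand that fell inside a deposited peak, 4 follow in 30 bases each, with the motif in capitals, because they place motif letters inside the measured peaks.
Fbn1, chr2:125506389-125506418, minus strand, peak called in both arms: gggtgccacaggcggccacagctgGGACAg
Mfap2, chr4:141010596-141010625, plus strand, peak called in the control arm: cggcgctctctaGGACCcagcgactccggg
Emilin1, chr5:30913642-30913671, plus strand, peak called in both arms: gaactgagggagGGACAgacaggagcctga
Emilin1, chr5:30913743-30913772, plus strand, UV-arm peak only: gcaggaagctagGGACAgaactggctcggc
The Fbn1 motif begins 44 bases downstream of the RefSeq start. The others begin upstream of the RefSeq start in their window, at offsets of -73 for Mfap2 and -132 and -31 for Emilin1. In the deposited gene annotation the Emilin1 peaks here still lie wholly in exons. The Mfap2 motif lies in a peak of which only 68 of 222 bases are exonic. The last Emilin1 motif separates the arms by position only, since the UV-arm peak ends at 30913760 and the control-arm peak at 30913730. The short Efemp1 peak also reached its window, which held none of these letters on either strand.

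Library depth ranged from 24126662 to 92163619 reads in genes. The levels of 10 fibroblast markers were summed in the input libraries, in CPM (read counts scaled to library size). This sum was 7977 to 8914 in control and 5685 to 6620 in UV, without overlap. At these levels fibroblast markers were expressed in every sample. Of these markers 10 of 10 had a log2 change below zero and 3 of 10 were called lower. The summed levels of 8 skeletal muscle markers were 4526 to 10482 in control and 1683 to 4405 in UV, with 2 of 8 called lower, and those of 8 adipocyte markers were 253 to 282 and 353 to 392, with 4 of 8 called higher. T cell markers summed to 9.21 to 11.4 in control and 2.49 to 3.23 in UV (3 of 6 called lower), without overlap. The 7 basal keratinocyte markers summed to 4794 to 9525 and 9548 to 14107 (1 called higher and 1 lower), ranges that nearly met. Sums of differentiated keratinocyte, hair and macrophage markers overlapped between groups. Over all genes tested, 3.02% were called higher and 2.81% lower. Smooth muscle markers overlapped (461 to 616 and 375 to 490), and 4 liver markers, a tissue that skin should lack, summed to 0.64 to 1.54. In bulk skin, fewer cells of a type and less RNA per cell cannot be told apart, and the part that these shifts play in the results on the 10 genes was not tested.

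Of the 10 elastic fibre transcripts, 1 was lower in UV skin at the adjusted threshold. Mfap2 was called lower and none higher by edgeR's quasi-likelihood test (Benjamini-Hochberg adjusted p below 0.05 over 24099 genes), and 8 had a log2 change below zero. The other 2, Fbn2 and Fbln5, were at 0.02 and turned to -0.06 and -0.07 when counts were scaled by library size alone. The background share was 5.83% of all genes called in either direction and 2.81% called lower. The median log2 change of the 10 genes was -0.33, beside -0.02 over all genes tested. In 5 genes, Mfap4, Mfap2, Fbn1, Eln and Efemp1, every UV input library lay below every control library, a pattern found in 15% of all genes.

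Per kilobase of exon, Fbn1 was the most abundant of the 10 genes in control skin, at 17.4 ± 2.36 CPM per kb (SD, n = 3). Eln followed at 7.97 ± 1.84 and Mfap4 at 7.30 ± 1.08, which did not differ beyond their spread. Mfap2 stood at 5.04 ± 0.234 and Efemp1 at 4.12 ± 0.668 CPM per kb. Emilin1 was at 2.86 ± 0.367, and below it Efemp2 (1.72 ± 0.323), Fbln5 (1.54 ± 0.248) and Fbn2 (1.33 ± 0.152) were neighbours within their spread. Mfap5 was the least abundant at 0.910 ± 0.169 CPM per kb. Because these values are per length, they can be set against each other, whereas the CPM values below compare a gene only with itself.

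**Figure D1:**
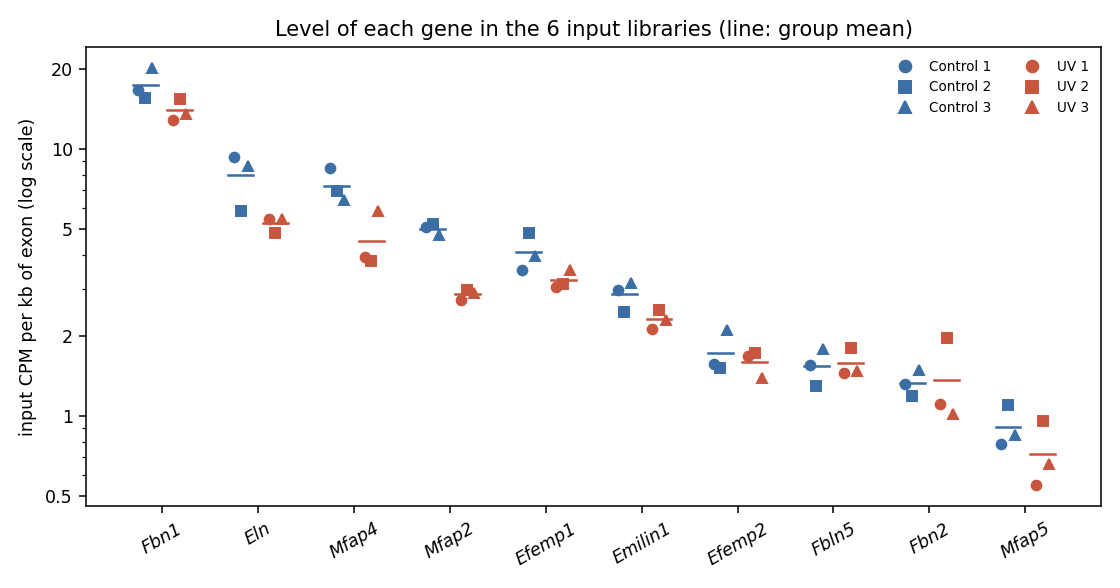
Input level of the 10 genes in CPM per kb of exon on a log axis, 1 point per input library (3 Control, 3 UV), with a line at each group mean. Fbn1 is highest and Mfap5 lowest, and the UV points of Mfap4, Mfap2, Fbn1, Eln and Efemp1 all lie below the control points.

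Mfap4 (microfibril associated protein 4, chr11:61485431-61488900, plus strand, GRCm38) encodes an extracellular fibrinogen-domain protein that binds elastin, fibrillin and collagen. Its input levels were 16.3, 13.4 and 12.3 CPM in the control samples and 7.55, 7.34 and 11.2 CPM in the UV samples. All UV values were below all control values, although UV 3 came close to the lowest control. The log2 change was -0.69 (SE 0.18), with an edgeR adjusted p of 0.0634, so Mfap4 itself did not pass the threshold. Across the alternatives the adjusted p ranged from 0.0103 to 0.21: Mfap4 was called lower with library-size scaling, with DESeq2, without the filter on low counts, and without UV 3, where the log2 change reached -0.92. Mfap4 shares 89 exonic bases with the opposite-strand gene Mapk7, outside the peaks; whether counting used strand was not stated, so reads there cannot be told apart.

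Mfap2 encodes MAGP-1, a small glycoprotein bound along fibrillin microfibrils. It measured 6.17, 6.34 and 5.79 CPM in control and 3.28, 3.59 and 3.51 CPM in UV. The groups were far apart relative to their spread. The log2 change was -0.82 (SE 0.12, adjusted p 0.0107 by edgeR), the lowest of the 10 genes. The call was lost without UV 1 (-0.78, adjusted p 0.0582) and without UV 3 (-0.83, adjusted p 0.051), while the size of the change stayed close. Mfap5 encodes the related MAGP-2 and was the least expressed member: 2.81, 3.95 and 3.04 CPM in control against 1.97, 3.44 and 2.36 in UV. These groups overlapped, and the log2 change of -0.32 (SE 0.24) was not called (adjusted p 0.439).

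Among the scaffold genes, Fbn1 encodes fibrillin-1, the main structural protein of microfibrils in adult tissue. It measured 201, 189 and 244 CPM in control and 156, 187 and 164 CPM in UV. The groups did not overlap, but UV 2 and Control 2 nearly met, and the log2 change of -0.33 (SE 0.12) gave an adjusted p of 0.131 by edgeR. Of its 12128 exonic bases, 2442 are shared with the opposite-strand Gm9913. Without stated strand use, the level, change and IP ratio of Fbn1 may hold reads of that gene. Fbn2 encodes fibrillin-2, best known from developing tissue. It measured 13.8, 12.4 and 15.6 CPM in control and 11.6, 20.5 and 10.6 CPM in UV, where UV 2 was the highest of all 6 and the other UV libraries the lowest. Its log2 change was 0.02 (SE 0.24, adjusted p 0.966), and without UV 2 it was -0.33.

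Eln encodes tropoelastin, the soluble precursor of the elastic core. It measured 75.8, 47.7 and 70.1 CPM in control and 44.5, 39.1 and 44.2 CPM in UV. Control 2 was the low control, close to the UV range, yet the groups stayed apart. The log2 change was -0.61 (SE 0.16, adjusted p 0.0589 by edgeR), and over the alternatives the adjusted p ran from 0.00646 to 0.181. Eln was called lower with library-size scaling, with DESeq2, without the filter, in the fit on all 12 libraries and without Control 2 (-0.78). Its exons share 267 bases with the opposite-strand Gm43278.

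Fibulins guide tropoelastin onto microfibrils, and none of the 3 measured here was called. Fbln5, needed for elastic fibre assembly, measured 9.01, 7.51 and 10.4 CPM in control and 8.45, 10.5 and 8.60 in UV, with overlapping groups and a log2 change of 0.02 (SE 0.15, adjusted p 0.950). Efemp1 (fibulin-3) measured 7.19, 9.87 and 8.12 CPM in control and 6.19, 6.33 and 7.18 in UV. Its groups touched without overlapping, and the log2 change was -0.35 (SE 0.14, adjusted p 0.173). Efemp2 (fibulin-4), which recruits lysyl oxidase, measured 4.15, 3.99 and 5.55 CPM in control and 4.43, 4.58 and 3.66 in UV, a log2 change of -0.13 (SE 0.17, adjusted p 0.675). Emilin1, a glycoprotein at the interface of elastin and microfibrils, measured 14.7, 12.1 and 15.6 CPM in control and 10.4, 12.3 and 11.3 in UV. Its groups overlapped at Control 2 and UV 2, and the log2 change was -0.33 (SE 0.12, adjusted p 0.141 by edgeR).

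Fibroblast markers had log2 changes on the same side of zero as most of these genes, so each gene was also expressed against the mean log2 CPM of the 10 fibroblast markers, a description without a test that was added after seeing the data. On this scale Mfap2 remained lower in UV without overlap, by -0.45. Mfap4 differed by -0.33 and Eln by -0.20, both with overlapping groups. Fbn1 (0.06), Emilin1 (0.06), Efemp1 (0.03) and Mfap5 (0.02) lay close to zero with overlap. For Fbln5 every UV value of this ratio was above every control value, with a difference of 0.41, while Fbn2 (0.35) and Efemp2 (0.27) overlapped. The marker mean itself was lower in UV, at 6.66, 6.63 and 6.79 in control and 6.22, 6.40 and 6.34 in UV. This scale therefore raises the difference of every gene by the same amount, and without it Fbln5 differed by 0.04. The share of all genes whose groups separate on this scale was not computed.

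**Figure D2:**
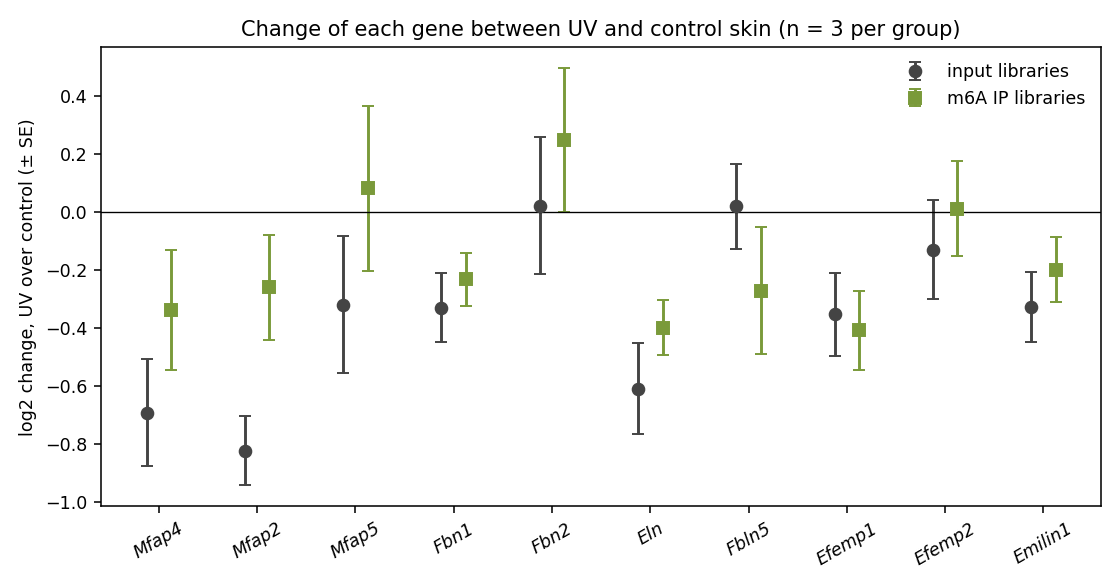
Log2 change of each gene between UV and control (y axis) in the input libraries and in the m6A IP libraries, with bars for the standard error of the edgeR fit (n = 3 per group). Input changes reach from -0.82 for Mfap2 to 0.02 for Fbn2 and Fbln5, and the IP changes of Mfap4 and Mfap2 lie nearer to zero than their input changes.

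In the IP libraries, which hold the RNA pulled down by the antibody, none of the 10 genes was called between UV and control by edgeR, where 2.5% of 22789 genes were called in either direction. At an unadjusted p, Fbn1, Eln and Efemp1 were below 0.05. The share of all genes below that value in IP was not computed, so this only describes the 3 genes. Their UV and control libraries did not overlap, as in 11.7% of all genes in the lower direction. Eln IP levels were 42.4, 39.5 and 41.8 CPM in control and 35.0, 28.8 and 30.5 CPM in UV, clearly apart. The log2 change was -0.40 (SE 0.10, adjusted p 0.0715), and DESeq2 and the fit without the filter called it. Efemp1 changed by -0.41 (adjusted p 0.158) and Fbn1 by -0.23 (adjusted p 0.214). Mfap4 IP levels were 14.0, 11.2 and 9.50 CPM in control and 7.21, 8.47 and 11.9 CPM in UV. These overlapped, and the log2 change of -0.34 (SE 0.21, adjusted p 0.421) was smaller in size than that of its input. Mfap2 IP levels changed by -0.26 (adjusted p 0.478) and also overlapped.

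The log2 ratio of IP to input over the whole gene gives an m6A enrichment relative to the average transcript. In control skin 1 of the 10 genes was called higher in IP and 4 lower, and in UV skin again 1 was called higher and 4 lower. Background shares were 50.3% of 25022 genes called in either direction in control and 49% in UV, so 5 of 10 is near the background. By direction these were 24.6% higher and 25.8% lower in control, and 24.7% higher and 24.3% lower in UV. Emilin1 stood apart from the other 9 genes: its ratios were 1.24, 1.61 and 1.39 in control and 1.46, 1.58 and 1.54 in UV. Its fitted enrichment was 1.41 (SE 0.12) in control and 1.53 (SE 0.12) in UV, called higher in both by edgeR. Fbn1 was depleted, with ratios of -0.66, -0.56 and -0.74 in control and -0.51, -0.57 and -0.61 in UV.

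Eln and Fbln5 were called depleted in both conditions as well, with fitted values of -0.65 and -0.44 for Eln and -0.62 and -0.91 for Fbln5 in control and UV. The Eln call in UV ended without any 1 of the UV samples, and the Fbln5 call in control ended without Control 1. Fbn2 was called in control only (-0.70, adjusted p 0.0499) and Efemp1 in UV only (-0.38, adjusted p 0.0369), with values of -0.47 (adjusted p 0.169) and -0.33 (adjusted p 0.0673) in the other condition. In this fit, which does not pair IP with input, both calls sat at the threshold. They were lost without any 1 sample of that condition. Mfap4, Mfap2, Mfap5 and Efemp2 were called in neither condition, with fitted values from -0.28 to 0.36. IP and input of 1 sample were also kept together as a block in edgeR. Mfap4 (-0.28, adjusted p 0.0053) and Efemp1 (-0.32, adjusted p 0.0205) were then also called lower in control. In UV, Fbn2 was also called lower (-0.48, adjusted p 3.6e-05) and Mfap2 higher. With the block, Fbn2 and Efemp1 were thus called lower in both conditions. The shares of all genes called were 61.1% in control and 60.5% in UV.

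**Figure D3:**
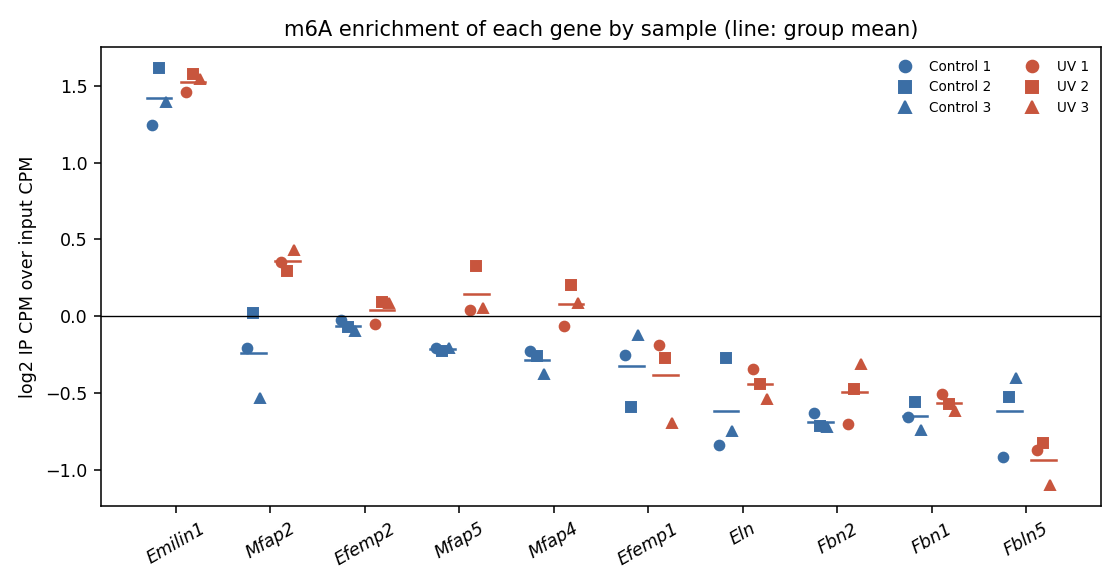
Log2 ratio of IP CPM to input CPM for each gene (y axis), 1 point per sample and a line at each group mean. Emilin1 lies between 1.24 and 1.61 in all 6 samples, and the UV points of Mfap4, Mfap2 and Mfap5 lie above their control points.

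In the 3 MFAP genes this ratio was higher in every UV sample than in every control sample, though no difference between conditions was called. For Mfap4 it was -0.23, -0.26 and -0.38 in control and -0.07, 0.21 and 0.09 in UV. For Mfap2 it was -0.21, 0.02 and -0.54 in control and 0.35, 0.30 and 0.43 in UV, and for Mfap5 -0.20, -0.23 and -0.21 against 0.04, 0.33 and 0.06. Such a separation was found in 7.9% of all genes. The edgeR interaction, which sets the IP over input ratio of UV skin against that of control skin, was 0.35 (SE 0.30) for Mfap4, 0.56 (SE 0.21) for Mfap2 and 0.40 (SE 0.40) for Mfap5, with an adjusted p of 1.00 for each. At an unadjusted p, Mfap2 was the 1 member below 0.05 (p 0.0209), where 4.43% of all genes were. No member was called and 0.012% of all genes were. With the sample block the interaction was 0.37 (SE 0.12, adjusted p 0.146) for Mfap4 and 0.58 (SE 0.17, adjusted p 0.114) for Mfap2, again uncalled, with 1.59% of all genes called. The ratio holds the input level in its denominator. Input had a log2 change below zero in all 3 genes, as in 8 of the 10 genes, and the input groups of Mfap5 overlapped. The part that input plays in these ratios was not tested.

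Peaks were deposited as called in the UV arm (24969 peaks) or the control arm (18020), and the 10 genes held 16 and 13 of them. Of the 10 genes 9 had at least 1 peak, as did 50.1% of the genes tested for expression; Fbln5 was the exception. In 5 genes, Mfap4, Fbn1, Fbn2, Efemp2 and Emilin1, both arms had a peak. Of the 16 UV-arm peaks 10 met a control-arm peak. Widths ran from 61 to 986 bases. Of the 29 peaks 28 lay inside 1 exon block, 16 in the last block of the gene and 8 in the first. How often the peaks of all genes meet across arms or lie in these blocks was not computed, so these counts only describe the 10 genes.

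**Figure D4:**
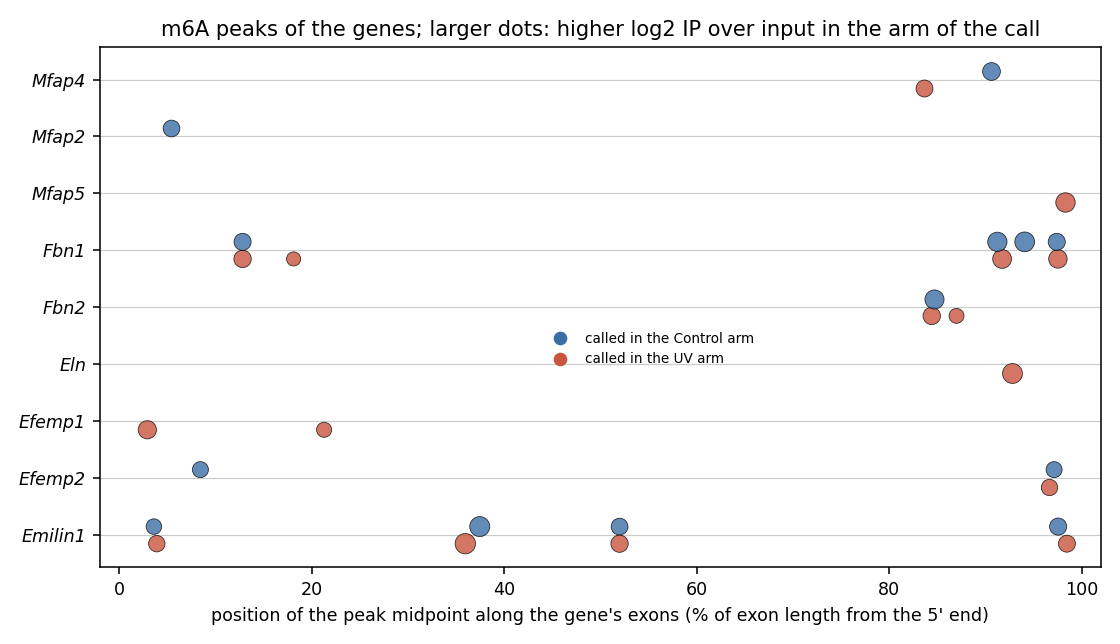
Midpoint of each of the 29 peaks along the exons of its gene, from 0% at the 5′ end to 100% at the 3′ end, in blue for the control arm and red for the UV arm, with larger dots for a higher log2 IP over input in the arm of the call. Most peaks sit near either end, and the Emilin1 peaks also fill the middle of the gene.

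The largest interaction of the 29 peaks was in Mfap4. Its UV-arm peak spans chr11:61488392-61488780 (389 bases) in the last of 6 exon blocks, and the control-arm peak is nested in it at chr11:61488661-61488780 (120 bases). Over the longer peak the log2 ratio of IP to input was 0.75, 0.28 and 0.19 in control and 1.32, 1.56 and 1.48 in UV, without overlap. The edgeR interaction was 1.00 (SE 0.28, unadjusted p 0.0024, adjusted p 0.521), where 0 of 42989 peaks were called (0%) and 8.39% had an unadjusted p below 0.05. With the sample block it was 1.04 (SE 0.24, adjusted p 0.0242) and was called, where 0.529% of the UV-arm peaks were called higher and 0.485% lower. In the authors' deposited table this peak has a log2 fold change of 1.01 with a p-value of 0.00944 and an FDR of 0.582, where 5.51% of its peaks had a p-value below 0.05 and 0.105% an FDR below 0.05. The peak was defined in the UV arm from these same libraries, so its bounds are not independent of the ratio.

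Of the levels behind this ratio, input separated the groups and IP overlapped. Whether input or IP accounts for the change of the ratio was not tested. Over the UV-arm peak the input level was 2.86 ± 0.297 CPM in control and 1.34 ± 0.249 in UV (SD, n = 3), with an exact two-sided permutation p of 0.1, the smallest that 3 against 3 allows. The IP level was 3.83 ± 0.687 and 3.70 ± 0.817 CPM (exact permutation p 0.8). In the 269 bases upstream of the control-arm peak, input levels were 1.75, 2.74 and 1.86 CPM in control and 0.61, 0.77 and 0.99 CPM in UV, a complete separation. The IP levels there were 1.78, 1.39 and 1.08 against 1.37, 1.40 and 1.38 CPM, which overlapped. These values rest on 77 to 116 control and 23 to 66 UV input reads, counted mostly as mates in pairs. The bounds of the UV-arm peak and of this upstream part came from calls on these same libraries. The input separations and their permutation p are therefore not independent of how the regions were chosen.

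In the rest of Mfap4 the ratio did not separate the groups. Mean input there was lower in UV, but the groups overlapped. Outside the UV-arm peak the input level was 11.2 ± 2.20 CPM in control and 7.37 ± 1.95 in UV (exact permutation p 0.2). Control 3 and UV 3 met at 9.61 CPM. The IP level was 7.72 ± 1.59 and 5.51 ± 1.66 CPM (exact permutation p 0.3). Outside the UV-arm peak the log2 ratio was -0.53, -0.48 and -0.59 in control and -0.58, -0.33 and -0.38 in UV, with overlapping groups and an exact permutation p of 0.3. In the control-arm peak the ratio was 1.58, 2.43 and 1.23 in control and 1.48, 2.27 and 2.31 in UV, again overlapping, and its interaction was 0.42 (SE 0.39, adjusted p 0.807 by edgeR). The authors' deposited table gives that peak a log2 fold change of 0.38 with a p-value of 0.313.

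**Figure D5:**
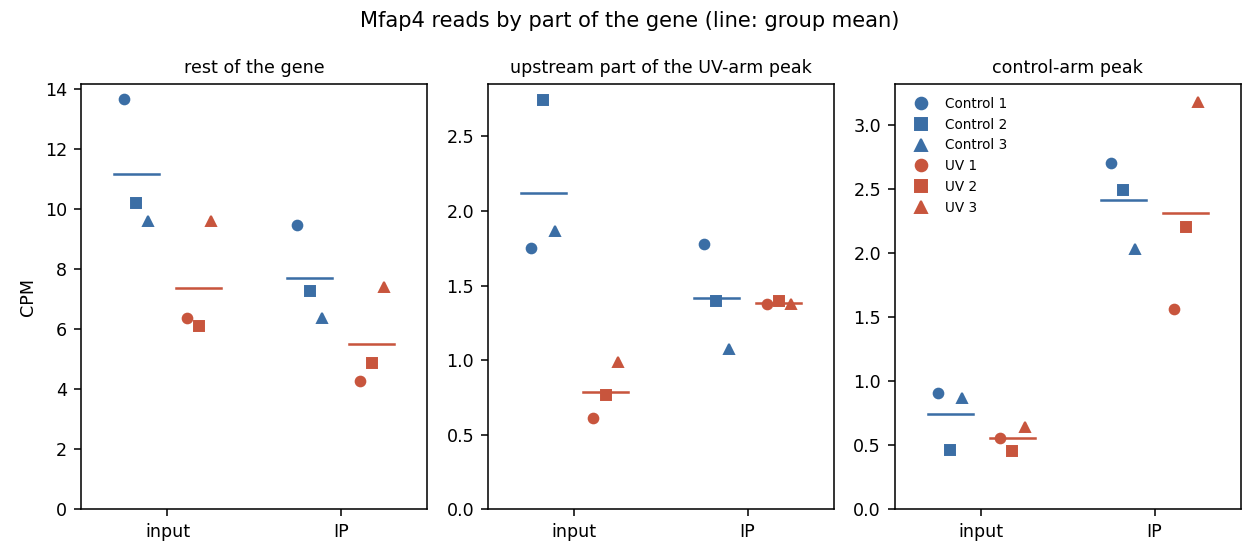
CPM of Mfap4 in the input and IP libraries for the gene outside the UV-arm peak, the upstream part of that peak and the nested control-arm peak, 1 point per sample with a line at each group mean and axes that start at 0. In the upstream part the UV input points (0.61 to 0.99) lie below the control points (1.75 to 2.74), while the IP points overlap.

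Fbn1 carried 4 peaks in each arm while its transcript as a whole was depleted in IP. The strongest in reads lies in its last exon block, chr2:125301312-125301881 in the UV arm, with ratios of 1.99, 1.98 and 2.08 in control and 1.99, 1.88 and 1.83 in UV. These 6 values are nearly level, and the interaction was -0.12 (SE 0.17). Near the 5′ end the peak at chr2:125506317-125506556, which holds the Fbn1 motif shown above, has the same bounds in both arms and fitted enrichments of 1.48 and 1.55. This peak lies over the opposite-strand Gm9913, as does the UV-arm peak at chr2:125505658-125505928. Without stated strand use the reads of either peak cannot be assigned to 1 gene, and both enter the shares that follow. The UV-arm peaks of Fbn1 covered 10.9% of its exon length and held 11.2% to 12.5% of its input reads but 52.6% to 57.1% of its IP reads.

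Emilin1 also had 4 peaks in each arm, all meeting a peak of the other arm. The widest, chr5:30917228-30918213, lies in the fourth of 5 exon blocks and had ratios of 1.96, 2.33 and 2.10 in control and 2.04, 2.38 and 2.43 in UV, with an interaction of 0.19 (SE 0.18). Its first-exon peak, which holds the motifs shown above, had fitted enrichments of 1.09 in control and 1.33 in UV. The UV-arm peaks covered 39.4% of Emilin1's exon length, and held 72.5% to 79.2% of its input reads and 89.2% to 91.2% of its IP reads. Peak and gene counts were made separately, so a share sets 1 table against the other.

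The other genes had few peaks with fewer reads. Eln had 1 peak, called in the UV arm only at chr5:134703101-134703250, with ratios of 1.24, 1.17 and 1.44 in control and 2.34, 2.84 and 1.81 in UV. The groups did not overlap, yet its UV input held 3, 4 and 11 reads, and the interaction of 0.88 (SE 0.63, adjusted p 0.728) was not called. Mfap2 had 1 peak, called in the control arm only, with ratios of 0.88, 1.91 and 1.60 in control and 1.64, 1.20 and 1.45 in UV, so the arm of the call did not separate the samples. Efemp1 had 2 peaks called in the UV arm only, and their interactions were -0.03 (SE 0.61) and 0.29 (SE 0.38). Efemp2 kept a peak at its 3′ end in both arms (1.23 and 1.32), and its second, 5′ peak was called in the control arm only, with an interaction of -0.37 (SE 0.55). The last-exon peaks of Fbn2 had interactions from -0.07 to 0.20, and the Mfap5 peak held 0 to 3 input reads, too few for a ratio in every sample.

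The wider elastic fibre pathway was represented by 43 listed partners, all tested. In input, 3 were called higher and 6 lower, with a median log2 change of -0.13, beside 3.02% and 2.81% of all genes. In the family named latent TGF-beta binding proteins, Ltbp2 rose by 1.10 (SE 0.15, adjusted p 0.0074 by edgeR). Its levels went from 4.09, 5.45 and 4.36 CPM to 11.04, 9.81 and 8.97 CPM. Ltbp1 (-0.42) and Ltbp4 (-0.54) fell, and Ltbp3 did not pass. Of the 5 cross-linking enzymes Loxl2 fell (-0.66, adjusted p 0.0169), from 50.7, 53.9 and 52.8 CPM to 28.0, 34.5 and 37.4 CPM, and Lox, Loxl1, Loxl3 and Loxl4 did not pass.

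Thsd4 (ADAMTSL6, a fibrillin-binding protein) fell by 0.88 on the log2 scale (adjusted p 0.0487), the proteoglycan Dcn by 0.77 (adjusted p 0.0133) and the protease Ctsk by 0.41 (adjusted p 0.0427). Dcn also belongs to the fibroblast marker list. The endothelial glycoprotein Mmrn2 rose by 0.58 (adjusted p 0.0178), where 7 endothelial markers summed to 81.3 to 88.9 CPM in control and 92.1 to 113 in UV. Mfap1b rose by 0.44 (adjusted p 0.0297). Despite its name it encodes a splicing protein, and its near-identical copy Mfap1a makes the assignment of its reads uncertain. None of the other fibulins or the integrin chains passed. Of these 9 calls only that of Ltbp2 held with each sample left out in turn. In the IP libraries Mmrn2 was called higher (0.69), and Ltbp1 (-0.49), Thsd4 (-1.06) and Dcn (-0.56) lower, while the interaction called none of the 43. Each of these 4 IP calls was lost when some single samples were left out, with the edgeR adjusted p reaching 0.173 for Dcn, 0.160 for Ltbp1, 0.0942 for Thsd4 and 0.0895 for Mmrn2.

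Among the 10 genes, the input levels of Fbn1 and Emilin1 were most alike over the 6 input libraries (Pearson r 0.950 of log2 CPM), followed by Mfap4 with Mfap2 (0.852) and Eln with Emilin1 (0.849). Over all genes with a mean of at least 5 CPM, those most like Mfap4 were Id1 (r 0.998), Trp53inp2 (0.994), Smim14 (0.986), Iqsec2 (0.986) and Eri3 (0.985). Those most like Mfap2 were Rassf4 (0.996), Vps13b (0.994), Fn1 (0.992), B3galnt2 (0.992) and Atf6 (0.991). With 6 points and 10460 candidates, such values are a description. Over all 12 libraries none of the 5 stayed among the most like Mfap4, and Rassf4 alone did for Mfap2.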

How the data were processed

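Read counts per gene and per peak were used as the authors deposited them for 6 input and 6 IP libraries. Reads were aligned with STAR 2.5.3a to GRCm38, per the submitters' processing notes. The counter, strand use, peak caller and the authors' test were not given in the sources used here. In each library, 79.5% to 83.6% of counts from 1 to 20 were even, as when both mates are counted. The deposited peak table also gives the authors' log2 fold change, p-value and FDR per peak. The file headers do not state the log base; the deposited log2 fold changes followed the recomputed log2 interaction with a slope of 1.00 over 36817 peaks. Peak starts, counted from 0 in the file, are printed from 1.

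Counts were normalised with TMM, filtered with filterByExpr and tested with edgeR 4.0.16 (quasi-likelihood, R 4.3.3), adjusted over all genes or peaks by Benjamini-Hochberg. CPM are counts scaled to the reads in genes, with TMM factors over all 12 libraries. Input and IP were each compared between UV and control; enrichment and the interaction used all 12 libraries with 4 group means. Peaks used the library sizes of the gene table. The scripts were tested on simulated data. The p-values rest on 3 samples a group.

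The sample numbers pair IP with input: over 11931 genes, departures from group means correlated at 0.602 to 0.875 within a sample and at -0.706 to -0.162 between samples of a condition. Numbers shared by UV and control did not pair samples (input r -0.099, 0.119 and -0.257).

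The members and lists were chosen with earlier results of these data known. Named were all 10 members and their peaks, every partner called in expression, IP or the interaction, and the 5 genes most like Mfap4 and Mfap2. Alternatives were library size alone, DESeq2 1.42.0, no filter, blocks, a fit on 12 libraries, other peak scalings, stricter peaks and leaving out each sample. The ratio to fibroblast markers was chosen after seeing the data. One further motif match is not reported here.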

Additional observations from a re-analysis of the deposited data

How the results depend on the processing

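Of 1086 values recomputed under the alternatives 875 stayed the same. For tested values this means the same direction and side of the threshold, and for counts a similar size. Untested ratios had to stay within their spread. Of the rest, 70 tested values lost their call, 22 gained one and 50 uncalled values changed sign. The other 69, which were counts and untested ratios, moved beyond these limits. Library size alone moved the median log2 change of all genes from -0.02 to -0.12 in expression, from -0.04 to -0.29 for enrichment in control and from -0.01 to -0.16 in UV. Expression calls then went from 728 higher and 676 lower to 455 and 1019, with 3 members called and Mfap4 at -0.80. Enrichment calls went from 6144 higher and 6451 lower to 3850 and 8836 in control (8 members called) and from 6179 and 6092 to 4574 and 7460 in UV, and the interaction called 5 genes instead of 3. DESeq2 called 2576 genes in expression (1317 higher, 1259 lower, 3 members, Mfap4 -0.68), 1362 in IP (1 member) and 50 in the interaction. Without the filter on low counts these were 2152 (1104 higher, 1048 lower, 3 members, Mfap4 -0.68), 1426 (1 member) and 22. The fit on all 12 libraries called 2143 genes in expression, 1196 higher, and 2 members.

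The replicate block called 713 genes in expression (369 higher, 344 lower), 247 in IP, 399 genes and 457 peaks in the interaction. In expression and IP the number shared by UV and control does not pair samples. Of the members' calls the block changed those named beside the results. Among the partners, Ltbp1, Thsd4 and Ctsk lost their expression calls, and Mmrn2, Ltbp1 and Thsd4 their IP calls.

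Leaving out each sample in turn gave 219 to 2100 genes called in expression (101 to 1237 higher, 118 to 863 lower) with 0 to 2 members, 67 to 1248 in IP, 3 to 5 members for enrichment in control and 3 to 6 in UV, and 0 to 7 genes and 0 to 6 peaks in the interaction. Mfap4 expression ranged from -0.92 to -0.56. Calls fell most in expression without UV 1 (219), UV 2 (319), UV 3 (336) and Control 1 (446).

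Signs changed for small uncalled values. With library size alone these were Fbn2 (-0.058) and Fbln5 (-0.068) in expression, Mfap4 (-0.080) and Efemp2 (-0.11) for enrichment in UV, Efemp1 (0.046) in the interaction, and the peaks of Emilin1 at 30921128 (0.035) and 30921068 (0.045), Efemp1 at 28853234 (0.059), Fbn2 at 58009910 (0.0025) and Mfap2 (0.050). With the replicate block they were Fbn2 expression (-0.044) and the peaks of Mfap2 (0.0058) and Fbn2 at 58010150 (-0.021). With a sample left out, expression ranged from -0.33 to 0.20 for Fbn2, from -0.084 to 0.14 for Fbln5 and from -0.21 to 0.042 for Efemp2. IP ranged from -0.32 to 0.28 for Mfap5, from -0.078 to 0.15 for Efemp2 and from -0.13 to 0.44 for Fbn2, and the Efemp1 interaction from -0.19 to 0.086. Peak interactions crossed zero for Emilin1 at 30918273 (-0.022 to 0.20), 30918302 (-0.032 to 0.21), 30921128 (-0.28 to 0.16) and 30921068 (-0.28 to 0.17), Mfap5 (-1.16 to 1.16), Fbn1 at 125301282 (-1.74 to 1.56), Mfap2 (-0.36 to 0.16), Efemp1 at 28853234 (-0.20 to 0.29), Efemp2 at 5481703 (-0.00094 to 0.17), and Fbn2 at 58009910 (-0.36 to 0.47) and 58010150 (-0.22 to 0.22). The cause was not tested.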
